A study of Mus musculus with 28 samples.

Results

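The comparison described here is the effect of SB431542 in cells that also received Nodal. It sets 3 arrays of mouse Xen-eyfp cells given 50 ng/ml Nodal and SB431542 against 5 arrays of the same line given 50 ng/ml Nodal, so 8 of the 28 arrays of the series are its members, chosen by their treatment labels alone. The Nodal was recombinant, every culture was sampled at 96 h, and the labels state no dose for SB431542. Xen-eyfp is a single line of extraembryonic endoderm stem (XEN) cells, so its response stands for 1 line. The other arrays held cells with 100 ng/ml Cripto and SB431542 (5), SB431542 alone (5), 100 ng/ml Cripto (5) or medium alone (Media, 5). Whether replicates came from separate cultures is not stated in the labels, and the p-values reflect only the scatter among these arrays, which may be technical.

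Nodal, a secreted signal related to TGF-beta and activin, binds activin receptors, in which a type II receptor activates the type I receptor Alk4 (Acvr1b), and the type I receptor then phosphorylates Smad2 and Smad3, which enter the nucleus with Smad4. SB431542 blocks the kinase site of Alk4 and of the related receptors for TGF-beta and activin. In the early mouse embryo the extraembryonic endoderm divides into visceral endoderm, an absorptive epithelium that covers the epiblast, and parietal endoderm, migratory cells that lay down Reichert's membrane, and Nodal signalling acts in the visceral layer.

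Expression was measured on Illumina MouseWG-6 v2 BeadChips from 200 ng total RNA per array. Values below are log2 intensities after background correction and quantile normalisation. A gene counts as detected on an array when the detection p-value of its probe was under 0.01. It is called when its adjusted p was under 0.05 in a limma fit over 9951 genes and all 28 arrays, with the BeadChip as a term. The 7 chips are numbered here from 1 to 7. The arrays with Nodal and SB431542 lay on chips 1, 3 and 4 and the Nodal arrays on chips 1, 2, 3, 5 and 6, so only chips 1 and 3 held both groups, and differences within those 2 chips are given beside the fitted ones. Where values of single arrays are listed, they run over replicates 1 to 3 with the inhibitor and 1 to 5 with Nodal.

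Mean signal was 529 ± 95.1 intensity units with Nodal and SB431542 (SD, n = 3) and 674 ± 224 units with Nodal (SD, n = 5), a difference within the spread of the arrays (exact two-sided permutation test over 56 splits, p = 0.339). The number of detected probes was 14956 to 16183 with the inhibitor and 13824 to 16108 with Nodal (exact permutation test, p = 0.429). All 12 markers of extraembryonic endoderm were detected on each of the 8 arrays, Gata6, Sox17 and Dab2 among them. The 4 fibroblast markers, the 2 trophoblast and 3 mesendoderm markers with a probe, and the epiblast markers Nanog and Sox2 were detected on none. Pou5f1, the remaining epiblast marker, was detected on all 8 arrays. Nodal replicate 1 stood apart. Its correlation with the other 4 Nodal arrays, over genes, was 0.87 to 0.95, against 0.94 to 0.99 among those 4. The lowest values, 0.87 and 0.88, were with replicates 4 and 5, which lay on chips 5 and 6. Calls of named genes in the main comparison that turn on Nodal replicate 1 are given with and without it. The 3 arrays with the inhibitor correlated at 0.98 to 0.99.

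**Figure D1:**
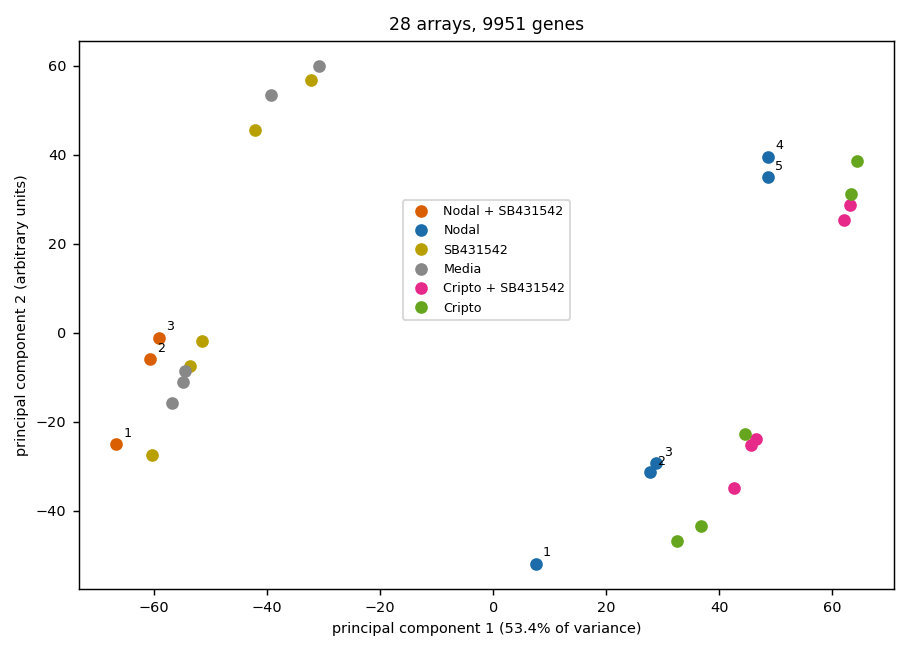
First and second principal components of the 28 arrays over 9951 genes (arbitrary units, 1 point per array, coloured by treatment, replicate numbers shown for the Nodal groups). The 3 arrays with Nodal and SB431542 lie at -66.7 to -59.2 on the first component, beside the Media and SB431542 arrays, and the 5 Nodal arrays at 7.52 to 48.7, with Nodal replicate 1 lowest among them.

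With SB431542 in the presence of Nodal, 5338 of 9951 genes were called (53.6%), 2588 of them higher (26%) and 2750 lower (27.6%) than with Nodal, and 5869 (59%) had an unadjusted p under 0.05. At a size of at least 2-fold, 1152 genes were higher (11.6%) and 965 lower (9.7%), and 76 rose and 60 fell at least 8-fold. All 3 arrays with the inhibitor read above all 5 Nodal arrays for 1955 genes (19.6%) and below them for 2188 (22%). Of the 5338 called genes, 4909 (92%) differed in the fitted direction on both chips 1 and 3. A probe was detected on all 8 arrays for 7134 genes (71.7%), and 3667 of those (36.9% of all genes) were called with the same sign on both chips. In a bulk sample, fewer cells of a type and less RNA per cell cannot be told apart.

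Without Nodal replicate 1 the count was 5856, and 5040 of the 5338 genes remained called in the same direction. A fit of chips 1 and 3 alone, with fewer arrays, called 2624. When arrays were centred on the median over all probes in place of quantile normalisation, the median change of all genes moved to -0.33 and the calls split into 1417 higher and 3757 lower. Centring on the median over only the probes detected on at least 3 arrays gave 2626 higher and 2566 lower, with a median change of 0.003. That last setting was added after the data were seen. Directions of small changes are therefore relative to the scaling. The groups of genes below are set against a median of -0.03 over all genes tested, and their counts against 26% higher and 27.6% lower.

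The largest falls among genes detected on all 8 arrays were those of Cldn6, Clic6 and Upp1. Cldn6, a tight junction protein of embryonic epithelia, read 6.40, 6.54 and 6.49 with Nodal and SB431542, against 11.24, 12.41, 12.65, 12.51 and 12.60 with Nodal. The groups were far apart, and its change of -5.65 ± 0.23 (SE, adjusted p = 4.54e-14) was -4.84 on chip 1 and -6.11 on chip 3. Clic6, of the chloride intracellular channel family, read 6.37, 6.73 and 6.65 with the inhibitor and 10.94, 11.42, 11.45, 11.67 and 11.63 with Nodal. That is a 27.9-fold lower level, or -4.80 ± 0.17 (SE, adjusted p = 8.87e-15) in log2. Upp1, a uridine phosphorylase of pyrimidine salvage, read 7.22, 7.57 and 7.34 with the inhibitor and 11.59, 12.08, 12.08, 12.31 and 12.15 with Nodal, a change of -4.51 ± 0.15 (SE, adjusted p = 4.45e-15). The other 2 probes of Upp1 gave -4.58 and -4.33.

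Flt1, a receptor for VEGF, fell to 7.74, 7.75 and 8.04 with the inhibitor, against 12.38, 12.20, 11.93, 11.99 and 11.91 with Nodal. Ankrd1, a nuclear ankyrin repeat protein best known from heart muscle, read 6.02, 6.23 and 6.30 with the inhibitor and 10.28, 10.41, 10.28, 10.61 and 10.52 with Nodal. For both genes the arrays of a group lay within 1 log2 unit of each other, and the changes were -4.24 ± 0.15 (SE, adjusted p = 1.1e-14) for Flt1 and -4.12 ± 0.13 (SE, adjusted p = 2.27e-15) for Ankrd1. Pdzk1, a scaffold of apical membrane transporters, fell by the same amount on both chips, -3.72 on chip 1 and -3.72 on chip 3. Its fitted change was -3.76 ± 0.13 (SE, adjusted p = 4.44e-15). Tns4, a tensin of focal adhesions, read 6.24, 6.52 and 6.16 with the inhibitor and 11.60, 10.53, 10.37, 10.69 and 10.81 with Nodal, a change of -4.40 ± 0.24 (SE, adjusted p = 7.28e-12). Tnnc1, the troponin C of slow and cardiac muscle, had values of 5.84, 6.09 and 5.84 with the inhibitor and 10.86, 9.56, 9.52, 10.29 and 10.02 with Nodal, a change of -3.93 ± 0.26 (SE, adjusted p = 1.05e-10). For Tns4 and Tnnc1 the highest of the 5 Nodal values was that of replicate 1.

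Probes of a gene did not always move by the same amount. Trim71, an RNA-binding ubiquitin ligase of early embryonic cells, changed by -4.45 ± 0.20 (SE, adjusted p = 3.31e-13) on its brightest probe and by -1.92 on the other. Eef1d, a subunit of a translation elongation factor, read 6.40, 5.95 and 6.17 with the inhibitor and 7.63, 10.86, 10.73, 10.94 and 10.94 with Nodal. Its Nodal replicate 1 value was more than 3 log2 units below the other 4, the fitted change was -3.85 ± 0.47 (SE, adjusted p = 8.67e-07), or -4.67 (adjusted p = 6.73e-14) without that array, and the second probe of Eef1d moved by -0.27. Spink1, a trypsin inhibitor made by visceral endoderm, read 8.67, 8.20 and 8.58 with the inhibitor and 12.22, 12.52, 12.23, 12.32 and 11.95 with Nodal, a change of -3.79 ± 0.15 (SE, adjusted p = 3.06e-14).

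**Figure D2:**
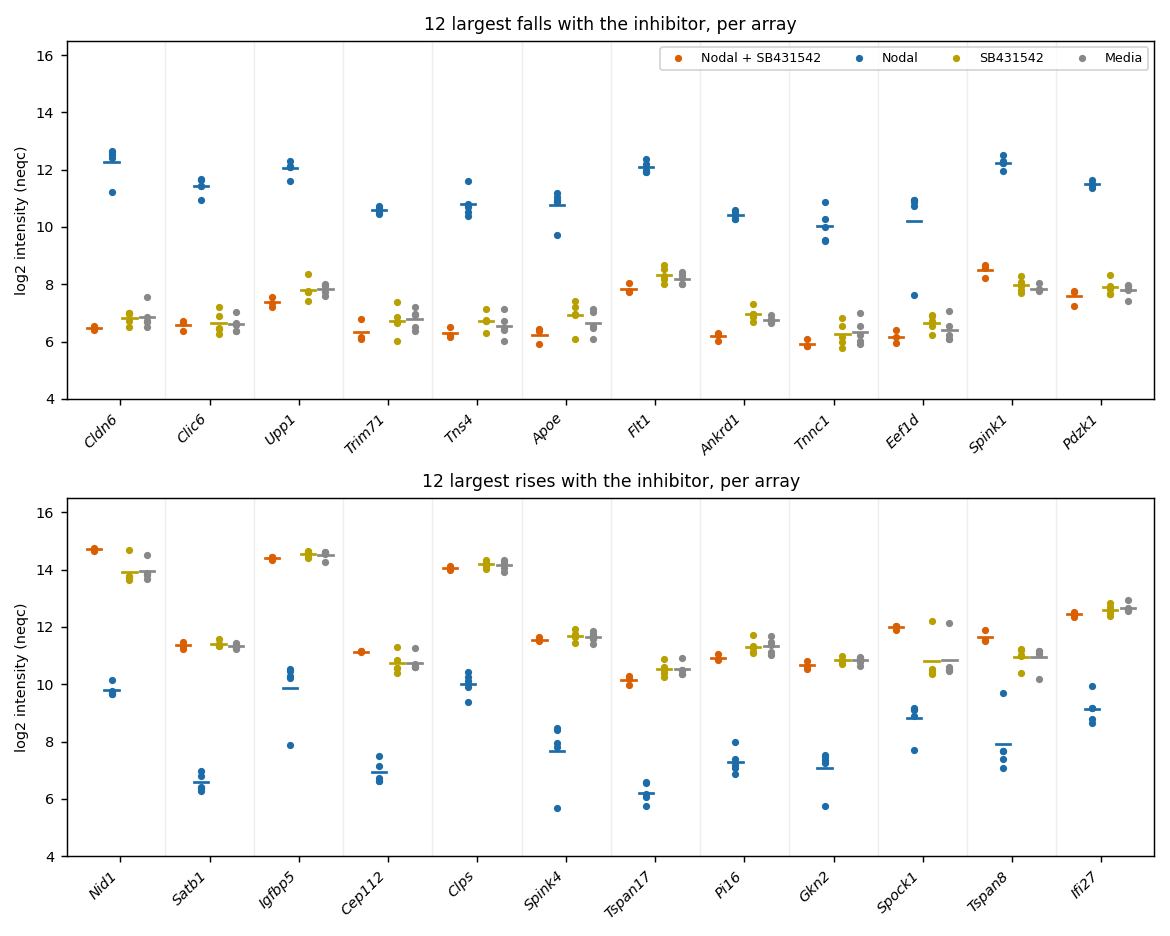
Log2 intensity on each array (points) and group means (bars) for the 12 genes with the largest falls (top) and the 12 with the largest rises (bottom) with the inhibitor, among called genes detected on all 8 arrays, in 4 treatments. The values with Nodal and SB431542 lie apart from the Nodal values and closer to those of SB431542 alone and of Media, and Nodal replicate 1 lies apart from the other Nodal arrays for Eef1d (7.63), Igfbp5 (7.89) and Spink4 (5.67).

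Among genes detected on all 8 arrays, the largest rises were those of Nid1, Satb1 and Igfbp5. Nid1, the nidogen that links laminin to type IV collagen in basement membranes, read 14.66, 14.77 and 14.68 with Nodal and SB431542 and 9.75, 10.16, 9.67, 9.72 and 9.67 with Nodal. The inhibitor arrays stood 31.6-fold higher, with differences of 4.91 on chip 1 and 5.10 on chip 3. Satb1, which organises chromatin loops, read 11.24, 11.35 and 11.47 with the inhibitor, against 6.26, 6.40, 6.43, 6.98 and 6.80 with Nodal, a change of 4.73 ± 0.16 (SE, adjusted p = 4.84e-15). Cep112, a centrosomal protein, read 11.13, 11.15 and 11.14 with the inhibitor, against 6.63, 6.63, 6.73, 7.14 and 7.48 with Nodal. It changed by 4.41 ± 0.14 (SE, adjusted p = 2.05e-15), the same on both chips to within 0.1.

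Clps, the pancreatic colipase, read 14.11, 13.99 and 14.06 with the inhibitor and 9.38, 9.90, 10.13, 10.25 and 10.43 with Nodal, a change of 4.12 ± 0.20 (SE, adjusted p = 9.16e-13). Gkn2, a gastrokine of the stomach lining, read 10.62, 10.54 and 10.81 with the inhibitor and 5.75, 7.34, 7.26, 7.45 and 7.54 with Nodal, a change of 3.57 ± 0.32 (SE, adjusted p = 1.42e-08). Spink4, a peptidase inhibitor of intestinal goblet cells, read 11.51, 11.53 and 11.64 with the inhibitor and 5.67, 7.80, 7.95, 8.48 and 8.41 with Nodal, a change of 4.11 ± 0.34 (SE, adjusted p = 3.78e-09). For Gkn2 and Spink4 the lowest Nodal value was again that of replicate 1, and without it the changes were 3.14 (adjusted p = 3.43e-09) and 3.53 (adjusted p = 2.61e-13).

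Igfbp5, which binds insulin-like growth factors, read 14.44, 14.32 and 14.45 with the inhibitor and 7.89, 10.53, 10.27, 10.47 and 10.21 with Nodal. Its change of 4.60 ± 0.38 (SE, adjusted p = 3.38e-09) was 3.94 (adjusted p = 1.99e-14) without Nodal replicate 1, where it read lowest. Ifi27, an interferon-inducible mitochondrial protein, rose to 12.35, 12.47 and 12.54 with the inhibitor, against 9.94, 8.80, 8.64, 9.16 and 9.16 with Nodal, a change of 3.39 ± 0.21 (SE, adjusted p = 4.18e-11). Pi16, a secreted peptidase inhibitor, read 10.84, 11.06 and 10.90 with the inhibitor and 7.07, 6.87, 7.17, 7.97 and 7.39 with Nodal, a change of 3.82 ± 0.17 (SE, adjusted p = 2.88e-13). Tspan8 and Tspan17 are tetraspanins of the cell membrane. Tspan8 read 11.88, 11.52 and 11.54 with the inhibitor and 9.71, 7.68, 7.66, 7.40 and 7.08 with Nodal, so that replicate 1 was the highest Nodal array. Tspan17 changed by 4.08 ± 0.15 (SE, adjusted p = 8.66e-15) on its brightest probe, and by 0.60 and 1.5 on its other 2. Spock1, a testican proteoglycan, changed by 3.42 ± 0.34 (SE, adjusted p = 4.85e-08) and by 0.89 on its second probe.

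For 131 called genes (1.32%) the probe was detected on all 5 Nodal arrays and no probe of the gene on any of the 3 inhibitor arrays, and for 174 (1.75%) the reverse held. Where a group has no detected array, the gene is not above background there and the fold is stated as a minimum, taken against the lowest detected signal of each array. Rnf130, a membrane ubiquitin ligase, read 10.29, 10.99, 11.06, 11.22 and 11.27 with Nodal and was at least 39.1-fold lower with SB431542. Dpp4, a peptidase of apical membranes, read 9.62, 10.78, 10.83, 11.22 and 11.03 with Nodal and was at least 32.4-fold lower with the inhibitor. The bounds for Car4, a membrane carbonic anhydrase, Cyp26a1, which breaks down retinoic acid, and Spint1, an inhibitor of membrane serine proteases, were at least 31.1-fold, 28.2-fold and 24.1-fold lower. The second probes of Cyp26a1 and Spint1 moved by -2.47 and -1.27.

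In the opposite direction, Pmch, the precursor of melanin-concentrating hormone, read 10.59, 10.85 and 10.71 with Nodal and SB431542 and was at least 29.6-fold higher than with Nodal. Tmem176b, a membrane protein, read 10.63, 10.61 and 10.51 with the inhibitor and was at least 27-fold higher. Sdk1, an adhesion molecule of the immunoglobulin family, read 9.90, 10.00 and 10.09 with the inhibitor, at least 18-fold higher. Klre1, a lectin-like receptor known from natural killer cells, and Acss1, a mitochondrial acetyl-CoA synthetase, were at least 15.9-fold and 12.3-fold higher. These 5 genes were also detected on all 5 Media arrays.

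The measured components of the Nodal pathway itself did not move in 1 direction. Of 9 measured ligands and extracellular modulators, 3 rose, 3 fell and 3 were not called, with a median log2 change of 0.13 that was -0.26 with median centring. For a list this short, these counts lie near the shares over all genes, 26% higher and 27.6% lower. Another 9 listed genes had a probe but did not pass the detection filter. Nodal itself, Tdgf1 (Cripto), Lefty2, Cer1, Gdf3 and Inhba were detected on none of the 28 arrays. Fstl1 and Inha were detected on 1 array each and Lefty1 on 2. Cfc1 encodes Cryptic, the EGF-CFC co-receptor related to Cripto. It read 10.85, 10.15 and 9.98 with the inhibitor and 8.97, 7.45, 7.47, 4.65 and 5.59 with Nodal, where replicates 4 and 5 lay on chips 5 and 6. Media arrays showed the same split by chip for Cfc1, with 10.77, 10.57, 10.63, 6.65 and 6.95, so the differences within chips bear the comparison, 1.88 on chip 1 and 2.69 on chip 3. Pcsk6, a convertase that cleaves the Nodal precursor, read 6.15, 6.08 and 6.12 with the inhibitor and 7.79, 7.85, 7.71, 8.28 and 8.27 with Nodal, a change of -1.74 ± 0.18 (SE, adjusted p = 1.15e-07). Furin, the second such convertase, changed by -0.59 ± 0.15 (SE, adjusted p = 0.00223). Tgfb1 changed by -0.86 ± 0.19 (SE, adjusted p = 0.000735). Gdf1, a ligand that pairs with Nodal, changed by 0.44 ± 0.15 (SE, adjusted p = 0.0178), a call lost in 8 of the 23 alternative settings. Fst, the activin-binding follistatin, was not called, at 0.13 ± 0.10 (SE, adjusted p = 0.273).

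Among 10 measured receptors and Smads, 5 rose, 2 fell and 3 were not called, with a median of 0.55, whereas with median centring 2 rose and 4 fell (median 0.23). Acvr1c and Foxh1 had a probe but were detected on none of the 28 arrays. The Alk4 gene Acvr1b read 5.87, 6.06 and 5.80 with the inhibitor and 6.18, 7.59, 7.61, 8.20 and 8.38 with Nodal. Its Nodal replicate 1 value lay close to the inhibitor arrays, and the change was -1.37 ± 0.25 (SE, adjusted p = 0.000134), or -1.71 (adjusted p = 3.35e-07) without that array. The type II receptor gene Acvr2b changed by -0.60 ± 0.13 (SE, adjusted p = 0.000862). Acvr2a, the second type II receptor, was detected on all 3 inhibitor arrays at 6.33, 6.36 and 6.14 and on no Nodal array, at least 1.36-fold higher. The TGF-beta receptor genes rose: Tgfbr1 by 0.98 ± 0.16 (SE, adjusted p = 3.24e-05), Tgfbr2 by 0.80 ± 0.18 (SE, adjusted p = 0.000971) and Tgfbr3 by 1.25 ± 0.22 (SE, adjusted p = 7.27e-05). The second probe of Tgfbr2 moved by -0.52, in the other direction. Smad2 rose by 0.72 ± 0.16 (SE, adjusted p = 0.000847), and Smad3 differed by -0.18 ± 0.14 (SE, adjusted p = 0.31).

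Of 11 measured genes of Smad2/3 feedback and response, 6 fell, 3 rose and 2 were not called, with a median of -0.48. Smad7, Bambi and Ldlrad4 had a probe but were detected on none of the 28 arrays. Skil encodes SnoN, a co-repressor of Smads that their signalling induces. It read 7.38, 7.46 and 7.04 with the inhibitor and 9.46, 8.73, 8.48, 8.79 and 8.59 with Nodal, with no overlap and a change of -1.51 ± 0.20 (SE, adjusted p = 2.93e-06). Ccn1, a matricellular protein, fell to 8.07, 7.91 and 8.25 with the inhibitor, against 11.58, 10.01, 10.03, 9.48 and 9.18 with Nodal, a change of -2.38 ± 0.25 (SE, adjusted p = 1.01e-07). Cdkn1a, the cell cycle inhibitor p21, read 10.91, 10.79 and 10.85 with the inhibitor and 11.93, 12.26, 12.35, 12.21 and 12.16 with Nodal, a change of -1.44 ± 0.12 (SE, adjusted p = 4.62e-09). The inhibitor p15, encoded by Cdkn2b, moved the other way. Cdkn2b read 10.20, 9.83 and 9.79 with the inhibitor and 8.20, 7.99, 7.72, 7.66 and 7.52 with Nodal, a change of 1.95 ± 0.12 (SE, adjusted p = 2.26e-11). Ccn2, a relative of Ccn1, read 14.75, 14.59 and 14.71 with the inhibitor and 14.72, 14.87, 14.51, 14.66 and 14.69 with Nodal and overlapped, at 0.05 ± 0.10 (SE, adjusted p = 0.683). The ubiquitin ligase gene Smurf1 changed by -1.22 ± 0.23 (SE, adjusted p = 0.000162). Pmepa1, which sequesters Smads, changed by 0.60 ± 0.21 (SE, adjusted p = 0.0236), with -0.08 on chip 1 and 0.71 on chip 3, and its call was lost in 13 of the 23 alternative settings.

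**Figure D3:**
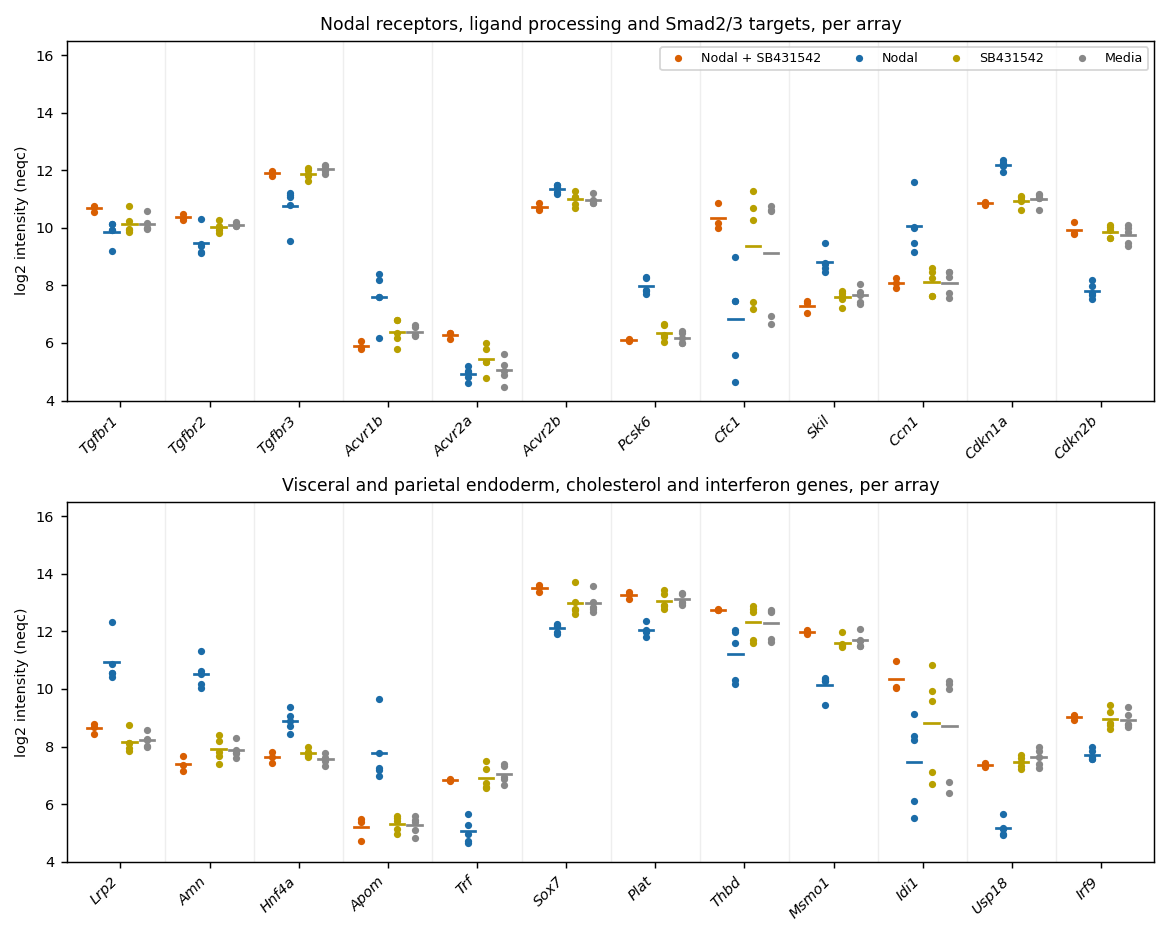
Log2 intensity on each array (points) and group means (bars) in 4 treatments, for Nodal receptors, ligand processing and Smad2/3 response genes (top) and for endoderm, cholesterol and interferon genes (bottom). Arrays with Nodal and SB431542 lie below the Nodal arrays for Acvr1b, Acvr2b, Pcsk6, Skil, Ccn1, Cdkn1a, Lrp2, Amn, Hnf4a and Apom and above them for the other genes, apart from an overlap for Tgfbr2, and the wide Media and SB431542 values of Cfc1 and Idi1 follow the chip.

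Genes of the visceral endoderm fell more often than they rose. Of 19 measured, 11 fell and 5 rose, with a median of -1.38, and the medians within chips were -0.62 on chip 1 and -1.43 on chip 3. The endocytic receptors of this absorptive epithelium were among those that fell. Lrp2 (megalin) read 8.79, 8.44 and 8.69 with the inhibitor and 12.34, 10.89, 10.54, 10.43 and 10.56 with Nodal, a change of -2.41 ± 0.25 (SE, adjusted p = 1.05e-07). Amn (amnionless), which carries cubilin to the apical membrane, read 7.15, 7.36 and 7.66 with the inhibitor and 11.34, 10.04, 10.16, 10.63 and 10.51 with Nodal, a change of -3.09 ± 0.25 (SE, adjusted p = 2.56e-09). Replicate 1 was the highest Nodal array for Lrp2, Amn and Cubn. Cubn (cubilin) was 9.84, 9.36 and 9.15 with the inhibitor and 12.05, 11.52, 11.45, 9.45 and 9.42 with Nodal, so the groups overlapped through the arrays of chips 5 and 6, and it differed by -2.20 on chip 1 and -2.08 on chip 3.

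Lipid carriers behaved unevenly. Apoe read 6.43, 6.37 and 5.93 with the inhibitor and 9.73, 10.86, 10.95, 11.04 and 11.20 with Nodal, a change of -4.35 ± 0.26 (SE, adjusted p = 1.99e-11). Apom was detected on all 5 Nodal arrays and none with the inhibitor, at least 4.26-fold lower, and Mttp, which loads lipid onto apolipoprotein B, changed by -1.65 ± 0.35 (SE, adjusted p = 0.000501). Apoa1 rose to 8.54, 8.58 and 8.41 with the inhibitor, against 5.39, 6.52, 6.42, 6.69 and 6.78 with Nodal, a change of 2.45 ± 0.21 (SE, adjusted p = 6.16e-09). The serum proteins Trf (transferrin) and Afp (alpha-fetoprotein) were detected on all 3 inhibitor arrays and no Nodal array, at least 2.02-fold and 2.31-fold higher. Ttr (transthyretin) rose by 1.03 ± 0.20 (SE, adjusted p = 0.000201). Rbp4, the plasma retinol carrier, read 4.61, 4.88 and 4.93 with the inhibitor and 4.94, 9.75, 9.81, 6.84 and 6.82 with Nodal, where replicate 1 was not detected. Hnf4a, a transcription factor of visceral endoderm, read 7.44, 7.62 and 7.81 with the inhibitor and 9.38, 8.87, 9.06, 8.42 and 8.72 with Nodal, a change of -1.38 ± 0.16 (SE, adjusted p = 4.66e-07).

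The Hnf4a promoter is shown because the gene fell while the GATA factor genes Gata4 and Gata6 were not called. It is taken from RefSeq (chr2:163506607-163506906 in GRCm38.p6, plus strand, 250 bases before to 50 after the transcript start, 1 of 2 listed starts of the gene) and has in capitals its match to AGATAA, searched on both strands. That motif is in 11.2% of 32851 promoters of this length, and in promoters of 3 of the 15 visceral endoderm genes found in the table, against 7.46% of the tested genes with a promoter. Of the other carriers, Foxa2 rose and Dab2 was not called.
Hnf4a: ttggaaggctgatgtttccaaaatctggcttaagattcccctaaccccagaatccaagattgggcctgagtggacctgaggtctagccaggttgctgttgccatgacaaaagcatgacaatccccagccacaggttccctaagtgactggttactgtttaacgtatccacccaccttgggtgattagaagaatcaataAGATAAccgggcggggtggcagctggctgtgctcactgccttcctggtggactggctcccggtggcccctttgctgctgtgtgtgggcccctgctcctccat

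Gata6 read 13.29, 13.28 and 13.38 with the inhibitor and 13.65, 13.31, 13.17, 13.28 and 13.35 with Nodal, a difference of -0.06 ± 0.11 (SE, adjusted p = 0.637), and Gata4 differed by 0.17 ± 0.23 (SE, adjusted p = 0.549). Of 9 measured transcription factors of primitive endoderm, 2 rose, 3 fell and 4 were not called, with a median of -0.06. These counts, too, lie near the 26% higher and 27.6% lower over all genes. Foxq1, a forkhead factor, read 11.39, 11.79 and 11.58 with the inhibitor and 12.50, 13.00, 12.79, 13.25 and 13.33 with Nodal, a change of -1.23 ± 0.11 (SE, adjusted p = 6.61e-09). Foxa2 rose by 0.57 ± 0.12 (SE, adjusted p = 0.000498). Sox17 changed by -0.30 ± 0.11 (SE, adjusted p = 0.0275), a call lost in 10 of the 23 alternative settings. Without Nodal replicate 1 its change was -0.24 (adjusted p = 0.0677).

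Genes of the parietal endoderm rose more often. Of 16 measured, 11 rose and 2 fell, with a median of 0.55, and 0.51 and 0.59 within chips 1 and 3. Sox7, a transcription factor of parietal endoderm, read 13.60, 13.38 and 13.55 with the inhibitor and 11.92, 11.99, 12.19, 12.21 and 12.27 with Nodal, a change of 1.56 ± 0.20 (SE, adjusted p = 2.23e-06). Its other probes ran between -0.20 and 1.96. Plat, the tissue plasminogen activator, read 13.37, 13.13 and 13.31 with the inhibitor and 11.80, 12.05, 12.01, 12.36 and 11.96 with Nodal, a change of 1.38 ± 0.12 (SE, adjusted p = 6.09e-09). Stra6, a retinol transporter, read 12.13, 12.30 and 12.06 with the inhibitor and 10.88, 10.15, 9.99, 10.50 and 10.49 with Nodal, a change of 1.84 ± 0.16 (SE, adjusted p = 6.96e-09). Thbd (thrombomodulin) differed by 0.69 on chip 1 and 1.15 on chip 3.

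In the basement membrane list, which shares 7 measured genes with the parietal one, 7 of 14 measured genes rose and 5 fell, with a median of 0.33. Laminin chains moved in both directions. Lama1, Lamb1 and Lamc1, the chains of laminin-111, rose by 0.38 ± 0.10 (SE, adjusted p = 0.00237), 1.11 ± 0.27 (SE, adjusted p = 0.0018) and 0.55 ± 0.12 (SE, adjusted p = 0.000554), although the arrays of the groups overlapped for Lamb1. Lama5, the alpha chain of laminin-511, fell to 8.51, 8.25 and 8.60 with the inhibitor, against 11.09, 9.52, 9.54, 10.17 and 9.78 with Nodal, a change of -1.48 ± 0.26 (SE, adjusted p = 7.44e-05). The nidogens also parted. Against the rise of Nid1, Nid2 read 11.89, 11.83 and 11.86 with the inhibitor and 13.48, 13.24, 12.98, 13.47 and 13.25 with Nodal, a change of -1.37 ± 0.13 (SE, adjusted p = 2.59e-08). Col4a1 rose by 0.51 ± 0.10 (SE, adjusted p = 0.000316) and Col4a2 fell by 1.63 on the log2 scale (adjusted p = 0.000186), with a much weaker signal for Col4a2. Hspg2 (perlecan) read 13.54, 13.80 and 13.83 with the inhibitor and 13.60, 11.74, 11.44, 11.75 and 11.86 with Nodal, so replicate 1 alone lay among the inhibitor arrays. Its change was 1.58 ± 0.31 (SE, adjusted p = 0.000223), or 2.09 (adjusted p = 1.58e-09) without that array.

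Of 23 measured epithelial junction and keratin genes, 16 fell, none rose and 7 were not called, with a median of -1.29. The within-chip medians were -1.31 and -1.53, and the median with bounds in place of fitted changes, for genes not above background in a group, was -0.78. Krt19 read 7.46, 7.53 and 7.77 with the inhibitor and 10.00, 10.38, 10.89, 11.01 and 10.98 with Nodal, a change of -2.87 ± 0.16 (SE, adjusted p = 5.52e-12). Krt18 and Krt8, which pair to form the first keratin filaments of the embryo, fell by different amounts, -1.65 ± 0.11 (SE, adjusted p = 1.59e-10) for Krt18 and -0.45 ± 0.10 (SE, adjusted p = 0.000731) for Krt8. The desmosomal cadherin Dsg2 read 8.87, 8.73, 8.68, 8.72 and 8.75 with Nodal and was at least 8.41-fold lower with the inhibitor.

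Cxadr, a tight junction receptor, read 8.02, 8.36 and 8.32 with the inhibitor and 10.67, 10.19, 10.30, 10.19 and 10.45 with Nodal, a change of -2.24 ± 0.17 (SE, adjusted p = 8.06e-10). Prss8, an epithelial serine protease, changed by -2.01 ± 0.18 (SE, adjusted p = 1.65e-08), and F11r, the junctional adhesion molecule A, by -1.51 ± 0.13 (SE, adjusted p = 5.42e-09). Cdh1 (E-cadherin) read 5.57, 5.73 and 5.68 with the inhibitor, detected on 2 of 3 arrays, and 8.92, 7.77, 7.86, 7.92 and 7.21 with Nodal, a change of -2.48 ± 0.26 (SE, adjusted p = 1.1e-07). Epcam was detected on the first 3 Nodal arrays and on none of chips 5 and 6, at 8.77, 7.19, 7.15, 4.54 and 4.61 with Nodal, and on none of the inhibitor arrays. Its level was at least 1.71-fold lower with the inhibitor, a fall that rests on chips 1 to 3.

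The 9 measured mesenchymal genes had a median of -0.01, with 3 rises and 2 falls, near the 26% higher and 27.6% lower over all genes. Zeb1, a repressor of epithelial genes, read 10.49, 10.67 and 10.55 with the inhibitor and 7.76, 9.10, 9.12, 9.08 and 9.31 with Nodal, a change of 1.84 ± 0.22 (SE, adjusted p = 5.61e-07). Fn1 (fibronectin) rose by 1.35 ± 0.26 (SE, adjusted p = 0.000185), and Snai1, a second repressor of Cdh1, by 0.74 ± 0.17 (SE, adjusted p = 0.00109). Acta2 (smooth muscle actin) and Itga5, a fibronectin receptor subunit, changed by -0.62 ± 0.18 (SE, adjusted p = 0.00695) and -0.48 ± 0.14 (SE, adjusted p = 0.00701). Vim (vimentin) overlapped between the groups, with 12.07, 12.30 and 12.47 under the inhibitor and 12.44, 12.20, 12.28, 12.60 and 12.51 with Nodal.

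**Figure D4:**
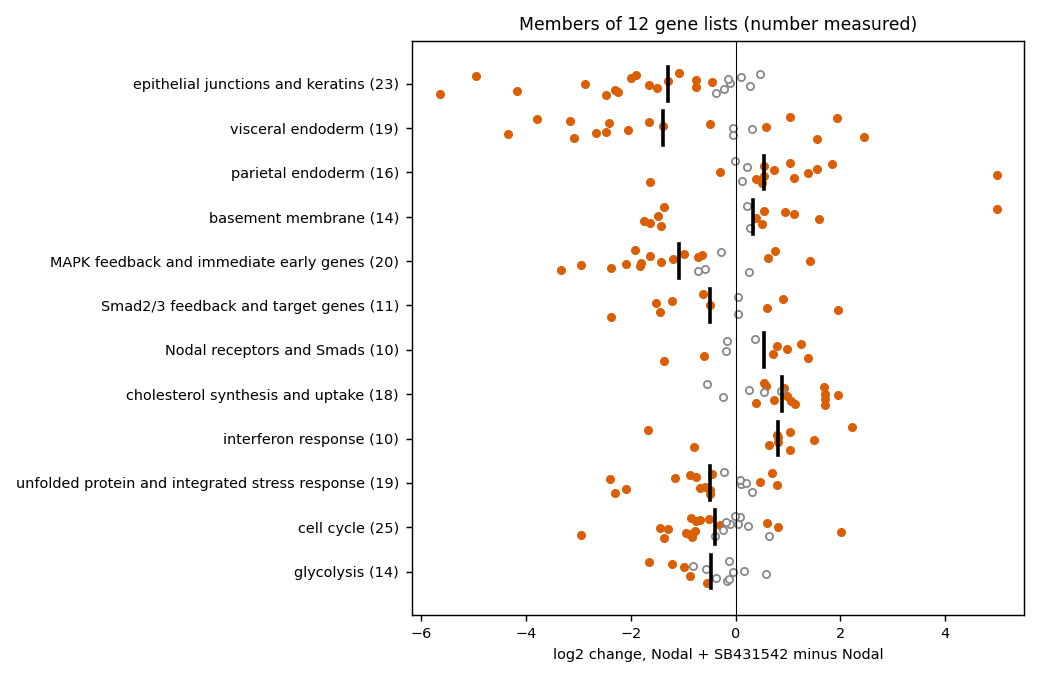
Fitted log2 change with the inhibitor for each measured member of 12 gene lists (1 point per gene, filled where called, open where not, black bar at the list median, number measured in brackets). The epithelial, visceral endoderm and MAPK medians lie at -1.29, -1.38 and -1.09, and the cholesterol and interferon medians at 0.89 and 0.81.

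Feedback genes of the MAPK pathway and immediate early genes mostly fell. Of 20 measured, 13 fell and 3 rose, with a median of -1.09. Dusp4 and Dusp6, phosphatases that ERK signalling induces and that switch MAP kinases off, were among them. Dusp4 read 6.21, 5.83 and 5.79 with the inhibitor and 9.05, 9.43, 9.41, 9.02 and 8.96 with Nodal, a change of -3.34 ± 0.20 (SE, adjusted p = 1.72e-11). Dusp6 read 7.51, 7.64 and 7.65 with the inhibitor and 9.78, 10.29, 10.01, 10.10 and 10.04 with Nodal, a change of -2.38 ± 0.15 (SE, adjusted p = 5.46e-11). The ETS factors Etv4 and Etv5 and the antagonist Spry4, all induced by FGF signalling, were detected on every Nodal array and on none with the inhibitor, at least 4.57-fold, 3.23-fold and 2.22-fold lower. Egr1 read 9.08, 9.24 and 9.50 with the inhibitor and 11.76, 10.82, 10.69, 10.75 and 10.74 with Nodal, and Fos 7.12, 7.51 and 7.37 with the inhibitor and 9.84, 8.85, 8.73, 8.73 and 8.62 with Nodal. Their changes were -1.83 ± 0.21 (SE, adjusted p = 3.03e-07) and -1.80 ± 0.21 (SE, adjusted p = 3.76e-07), with Nodal replicate 1 highest for each. Against this direction, Fosl2 changed by 1.41 ± 0.17 (SE, adjusted p = 1.1e-06) and by -0.42 on its second probe, and Jun by 0.62 ± 0.22 (SE, adjusted p = 0.0225). The call of Jun was lost in 7 of the 23 alternative settings, and without Nodal replicate 1 its change was 0.52 (adjusted p = 0.0642).

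In the insulin-like growth factor system, 6 of 12 measured genes fell and 3 rose, with a median of -0.26, against 27.6% lower and 26% higher over all genes. The receptor gene Igf1r was detected on all Nodal arrays at 8.41, 8.29, 8.51, 9.09 and 8.89 and on none with the inhibitor, at least 7.78-fold lower, while its other probes moved by -2.15 and -0.36. Irs2, an adaptor downstream of the receptor, fell to 6.73, 7.32 and 7.41 with the inhibitor, against 9.93, 8.92, 8.89, 9.36 and 9.17 with Nodal, a change of -1.99 ± 0.25 (SE, adjusted p = 1.13e-06). The ligands rose. Igf1 read 10.07, 10.54 and 10.56 with the inhibitor and 8.77, 7.23, 7.70, 8.56 and 8.24 with Nodal, a change of 2.41 ± 0.23 (SE, adjusted p = 2.69e-08), and Igf2 changed by 2.05 ± 0.20 (SE, adjusted p = 5.22e-08). Grb10, an inhibitor of the receptor, read 4.76, 10.70, 10.54, 10.60 and 10.61 with Nodal and was detected on none of the inhibitor arrays. Nodal replicate 1 alone matched those arrays, and the second probe of Grb10 moved by -0.16.

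Of 12 measured BMP pathway genes, 5 fell and 2 rose, with a median of -0.49. Bmper, a secreted BMP modulator, had one of the larger changes. It read 12.40, 12.27 and 12.22 with the inhibitor and 9.94, 9.53, 9.35, 9.46 and 9.42 with Nodal, a change of 2.79 ± 0.13 (SE, adjusted p = 6.09e-13). Id1, a BMP response gene, read 6.72, 7.0 and 6.56 with the inhibitor and 8.45, 8.13, 8.44, 8.72 and 8.72 with Nodal, a change of -1.59 ± 0.19 (SE, adjusted p = 6.47e-07). Smad1, which carries the BMP signal, and Nog (noggin), which captures BMPs, changed by -0.95 ± 0.21 (SE, adjusted p = 0.000728) and -0.55 ± 0.14 (SE, adjusted p = 0.00239).

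Axin2 and Apcdd1, both induced by Wnt signalling and both negative regulators of it, were the 2 of 5 measured Wnt genes that rose, and none fell. Axin2 read 8.06, 8.19 and 8.13 with the inhibitor, against no detected Nodal array, at least 4.93-fold higher. Apcdd1 read 10.12, 9.85 and 9.68 with the inhibitor and 7.15, 6.50, 6.21, 5.12 and 4.84 with Nodal, a change of 3.09 ± 0.29 (SE, adjusted p = 2.41e-08). On Nodal replicates 4 and 5 it lay below the lowest detected signal of each array. Among 9 genes of retinoid handling, 4 rose and 2 fell, against 26% higher and 27.6% lower over all genes, with a median of 0.60, or 0.24 with bounds. Rarb, a retinoic acid receptor and target, read 8.07, 8.11 and 8.21 with the inhibitor and 5.53, 6.91, 6.84, 7.31 and 6.88 with Nodal, a change of 1.65 ± 0.23 (SE, adjusted p = 4.87e-06). Rarg changed by 0.79 ± 0.17 (SE, adjusted p = 0.000586), and Crabp1, a retinoic acid binding protein, was at least 1.18-fold higher, close to the detection limit.

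Cholesterol synthesis genes rose together: of 18 measured, 13 rose, none fell and 5 were not called, with a median of 0.89 and within-chip medians of 0.96 and 0.81. With median centring 8 rose and 1 fell (median 0.55). Msmo1, a sterol demethylase, read 12.07, 12.02 and 11.90 with the inhibitor and 9.44, 10.35, 10.28, 10.27 and 10.38 with Nodal, a change of 1.95 ± 0.18 (SE, adjusted p = 2.21e-08). Mvd, which makes isopentenyl diphosphate, read 10.31, 10.31 and 10.40 with the inhibitor and 8.56, 8.83, 8.74, 9.21 and 9.03 with Nodal, a change of 1.71 ± 0.12 (SE, adjusted p = 1.89e-10). Neither gene overlapped between the groups. Sqle, the squalene epoxidase, changed by 1.69 ± 0.17 (SE, adjusted p = 4.73e-08), and Cyp51, a lanosterol demethylase, by 1.70 ± 0.25 (SE, adjusted p = 7.55e-06). Srebf2, the transcription factor that drives the pathway, rose by 0.57 ± 0.11 (SE, adjusted p = 0.000284). Idi1, an isomerase, depended on the chip as Cfc1 did and differed by 1.85 on chip 1 and 1.67 on chip 3. Fdps (farnesyl diphosphate synthase) changed by 1.06 ± 0.32 (SE, adjusted p = 0.00937). None of the 15 list members with a promoter in the table held TCACNCCAC, a form of the sterol element that SREBP factors bind, which 1.24% of all 32851 promoters held. Searches in 2 other lists also gave no match among members with a promoter. The Foxh1 element AATNCACA (3.6% of all promoters) was in none of 8 Smad2/3 response genes. The Smad palindrome GTCTAGAC (0.213%) was in none of the same 8. The AP-1 element TGANTCA (7.81%) was in none of 14 MAPK and immediate early genes.

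All 10 measured interferon response genes were called, 8 higher and 2 lower, with a median of 0.81, and with median centring 6 were higher and 2 lower. Another 7 of the 18 listed genes had a probe but did not pass the detection filter. Of those, Ifit1, Ifit2, Ifit3, Mx1, Rsad2 and Psmb8 were detected on none of the 28 arrays, and Psmb9 on 1. The counts therefore cover only the detected part of the list. Usp18, which cleaves ISG15 from proteins and damps interferon signalling, read 7.42, 7.37 and 7.28 with the inhibitor and 5.67, 4.92, 4.97, 5.18 and 5.12 with Nodal, a change of 2.23 ± 0.15 (SE, adjusted p = 2.56e-10). The size of that change is uncertain, because Usp18 on Nodal replicates 2 to 5 lay below the lowest detected signal of each array. Irf9 and Stat2, parts of the factor that interferon activates, rose. Irf9 read 9.09, 8.93 and 9.06 with the inhibitor and 7.84, 7.56, 7.58, 7.65 and 7.97 with Nodal, a change of 1.51 ± 0.17 (SE, adjusted p = 2.56e-07), but its second probe moved by 0.13. Stat2 read 8.81, 8.50 and 8.65 with the inhibitor and 7.56, 7.47, 7.29, 8.03 and 7.94 with Nodal, a change of 1.04 ± 0.18 (SE, adjusted p = 5.84e-05). B2m, the light chain of MHC class I, read 13.43, 13.65 and 13.64 with the inhibitor and 12.07, 12.23, 12.68, 12.42 and 12.68 with Nodal, a change of 1.03 ± 0.16 (SE, adjusted p = 2.37e-05). Tap1, the peptide transporter for the same complex, went the other way, with 6.98, 6.22, 6.80, 7.30 and 7.04 for Nodal and no detected array with the inhibitor, at least 2.28-fold lower. Isg15 changed by 0.81 ± 0.21 (SE, adjusted p = 0.00314), and Bst2 (tetherin) by -0.80 ± 0.30 (SE, adjusted p = 0.0284), a call lost in 8 of the 23 alternative settings.

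Of the 9 interferon genes with a promoter in the table, 4 held the interferon-stimulated response element in the form TTTC, any 2 bases, TTTC (or GAAA, any 2 bases, GAAA on the other strand), which 3.44% of all 32851 promoters held. They are shown because 3 of them (B2m, Stat2 and Isg15) rose and 1 (Bst2) fell, so the same element lay in genes of both directions. The sequences are RefSeq promoters in GRCm38.p6, 250 bases before to 50 after the start, with matches in capitals, at chr2:122147437-122147736 (plus strand), chr10:128270248-128270547 (plus strand), chr4:156200769-156201068 (minus strand) and chr8:71537423-71537722 (minus strand). Isg15 holds 3 overlapping matches and Bst2 holds 2.
B2m: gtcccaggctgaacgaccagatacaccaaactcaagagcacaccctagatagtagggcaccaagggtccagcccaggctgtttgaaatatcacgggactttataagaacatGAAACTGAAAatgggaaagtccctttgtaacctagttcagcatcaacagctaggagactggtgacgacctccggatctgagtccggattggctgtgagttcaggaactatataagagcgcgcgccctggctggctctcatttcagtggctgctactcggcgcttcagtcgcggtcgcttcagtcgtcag
Stat2: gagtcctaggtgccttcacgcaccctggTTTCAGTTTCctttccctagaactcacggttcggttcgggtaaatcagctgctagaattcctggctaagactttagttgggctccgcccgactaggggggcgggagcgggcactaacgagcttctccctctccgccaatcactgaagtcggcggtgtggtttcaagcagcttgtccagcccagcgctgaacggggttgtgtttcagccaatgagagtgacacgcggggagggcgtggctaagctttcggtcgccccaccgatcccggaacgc
Isg15: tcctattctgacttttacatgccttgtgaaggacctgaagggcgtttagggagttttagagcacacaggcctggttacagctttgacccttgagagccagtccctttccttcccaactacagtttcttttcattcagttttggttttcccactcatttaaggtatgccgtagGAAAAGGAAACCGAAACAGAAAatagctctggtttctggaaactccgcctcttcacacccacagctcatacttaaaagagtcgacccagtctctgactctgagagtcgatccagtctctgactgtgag
Bst2: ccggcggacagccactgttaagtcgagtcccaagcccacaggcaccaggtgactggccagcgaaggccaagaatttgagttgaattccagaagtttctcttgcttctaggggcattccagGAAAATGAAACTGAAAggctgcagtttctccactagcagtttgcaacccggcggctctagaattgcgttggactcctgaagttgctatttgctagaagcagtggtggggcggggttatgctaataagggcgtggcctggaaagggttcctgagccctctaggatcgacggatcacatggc

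Of 19 genes of the unfolded protein and integrated stress response, 11 fell and 3 rose, with a median of -0.48, and with median centring 12 fell and none rose (median -0.86). Enzymes of serine synthesis and stress-induced factors were among the genes that fell. Phgdh, the first enzyme of serine synthesis, read 7.26, 6.99 and 7.21 with the inhibitor and 8.93, 9.72, 9.83, 9.84 and 10.13 with Nodal, a change of -2.40 ± 0.21 (SE, adjusted p = 8.51e-09). Atf3, a stress-induced transcription factor, read 6.36, 6.18 and 5.72 with the inhibitor and 8.82, 8.26, 8.46, 8.10 and 8.57 with Nodal, a change of -2.29 ± 0.23 (SE, adjusted p = 7.56e-08), and Chac1, which degrades glutathione, changed by -2.08 ± 0.20 (SE, adjusted p = 2.65e-08). Psat1, the next serine enzyme, changed by -1.16 ± 0.26 (SE, adjusted p = 0.00091). Vegfa rose by 0.70 ± 0.12 (SE, adjusted p = 5.32e-05), while its receptor gene Flt1 fell.

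Of 25 cell cycle genes, 13 fell and 3 rose, with a median of -0.39, and with median centring 16 fell and 1 rose (median -0.71). Ccnd2 (cyclin D2) read 8.52, 8.76 and 8.74 with the inhibitor and 11.52, 11.82, 11.58, 11.63 and 11.84 with Nodal, a change of -2.96 ± 0.13 (SE, adjusted p = 1.73e-13). The mitotic kinase genes Aurka and Cdk1 changed by -1.36 ± 0.14 (SE, adjusted p = 1.04e-07) and -1.29 ± 0.19 (SE, adjusted p = 1.09e-05). Ccne2 (cyclin E2) was detected on the 3 inhibitor arrays and on no Nodal array, at least 1.91-fold higher. Mcm4 rose by 0.59 ± 0.14 (SE, adjusted p = 0.00121) on its brightest probe, but the other 2 probes moved by -1.57 and -1.09, so its direction is uncertain.

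None of 14 glycolysis genes rose and 5 fell, or 9 with median centring, with a median of -0.47. The glucose transporter genes Slc2a3 and Slc2a1 changed by -1.65 ± 0.15 (SE, adjusted p = 1e-08) and -1.22 ± 0.11 (SE, adjusted p = 2.14e-08). Ldha (lactate dehydrogenase) read 12.47, 12.83 and 12.75 with the inhibitor and 12.63, 13.87, 13.75, 14.11 and 14.01 with Nodal, so Nodal replicate 1 lay among the inhibitor arrays. The list median was 0.26 on chip 1, which held that array, and -0.77 on chip 3, and without that array 11 of the 14 genes fell. Aldoa (aldolase) changed by -0.55 ± 0.11 (SE, adjusted p = 0.000349).

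Of 7 measured genes of the pluripotent epiblast, 4 fell and 1 rose, with a median of -0.61. Dnmt3b, a DNA methyltransferase, read 10.73, 10.85 and 10.71 with the inhibitor and 12.13, 12.23, 11.85, 12.21 and 12.02 with Nodal, a change of -1.30 ± 0.11 (SE, adjusted p = 4.66e-09). Lin28a, which blocks let-7 maturation, read 10.93, 10.58 and 10.23 with the inhibitor and 12.20, 12.53, 12.93, 10.29 and 10.58 with Nodal, low on chips 5 and 6, and differed by -1.27 on chip 1 and -2.35 on chip 3. Dppa5a changed by -1.15 ± 0.25 (SE, adjusted p = 0.000691), and Pou5f1 (Oct4) overlapped between the groups. The change of Pou5f1, 0.52, was not called, but without Nodal replicate 1 it was 0.95 (adjusted p = 0.000621) and called. In the trophoblast list, Gata3 read 9.54, 9.68 and 9.48 with the inhibitor and 6.06, 5.13, 5.15, 5.61 and 5.49 with Nodal, a change of 3.96 ± 0.18 (SE, adjusted p = 2.86e-13). Its values on Nodal replicates 2 to 5 lay below the lowest detected signal of each array, so the size of that change is uncertain. Cdx2 and Elf5, which define trophoblast, were detected on none of the 8 arrays. Col5a1, from the list of fibroblast feeder cells, rose by 2.06 ± 0.14 (SE, adjusted p = 2.3e-10), while the fibroblast markers Col1a1, Col1a2, Col3a1 and Thy1 were detected on none.

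The next comparison asked whether the inhibitor did the same in cells without Nodal. For SB431542 alone against Media no gene was called (0 of 9951 by limma, 270 or 2.71% at an unadjusted p under 0.05), and the 95% interval of the change lay within 2-fold for 97.9% of genes. The change with the inhibitor in Nodal-treated cells differed from that in untreated cells for 4365 genes (43.9%), 2137 higher (21.5%) and 2228 lower (22.4%), and at least 2-fold for 1164 on the high side (11.7%) and 974 on the low side (9.79%). An unadjusted p under 0.05 was reached by 50.7% of genes. Among the genes with the largest fitted differences on the low side were Cpn1, a carboxypeptidase subunit, at -6.54 ± 0.31 (SE, adjusted p = 1.47e-12), Gpc3, a glypican of the cell surface, at -6.23 ± 0.28 (SE, adjusted p = 8.57e-13), and Cldn6 at -5.64 ± 0.29 (SE, adjusted p = 4.23e-12). Cpn1 read 5.05, 5.54 and 5.93 with Nodal and SB431542, detected on 1 array, and 11.95, 12.08, 12.22, 12.07 and 12.28 with Nodal. These values are of its brightest probe, and its other 2 probes moved by -4.85 and -0.32 in the main comparison. Gpc3 was detected on 2 of the 3 arrays with Nodal and SB431542, so the sizes given for Cpn1 and Gpc3 are uncertain. Car4 and Cyp26a1, also on that side, were detected on none of those 3 arrays, so the size of their difference was not measured. On the high side, Nid1 was detected on every array of the 4 groups and differed by 5.04 ± 0.27 (SE, adjusted p = 7.48e-12). Pmch, Tmem176b and Sdk1 were detected on no Nodal array and Tnik, a kinase of the Wnt pathway, on 2 of 5, while all 4 genes were detected on every array with Nodal and SB431542, SB431542 alone or Media, and no size is given for them. This difference contains the Nodal arrays of the main comparison, so its genes are not separate evidence.

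The same inhibitor was also given with Cripto, on 5 arrays against 5 Cripto arrays, which share no sample with the Nodal pair. There, 856 genes were called (8.6%), 420 higher (4.22%) and 436 lower (4.38%), and 7 rose (0.0703%) and 103 fell (1.04%) by at least 2-fold. The inhibitor's change in Nodal-treated cells differed from that in Cripto-treated cells for 4750 genes (47.7%), 2286 higher (23%) and 2464 lower (24.8%), and at least 2-fold for 1350 on the high side (13.6%) and 1143 on the low side (11.5%). An unadjusted p under 0.05 was reached by 53.7%. Cpn1 differed by -7.03 ± 0.32 (SE, adjusted p = 9.73e-13), with a change of 0.38 ± 0.21 (SE, adjusted p = 0.279) in the Cripto pair. Ddc, which makes dopamine and serotonin, fell to 6.22, 5.44 and 5.70 with Nodal and SB431542, against 11.56, 11.23, 11.14, 10.85 and 10.70 with Nodal, and differed between the ligands by -5.77 ± 0.21 (SE, adjusted p = 7.98e-14).

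Gpc3 and Cldn6 differed between the ligands by -6.23 ± 0.29 (SE, adjusted p = 1.34e-12) and -5.66 ± 0.30 (SE, adjusted p = 7.82e-12). For Cldn6 the change in the Cripto pair was 0.01 ± 0.20 (SE, adjusted p = 0.978). Car4 was detected on all 10 arrays of the Cripto pair and on none with Nodal and SB431542, so its difference has no measured size. On the other side, Pmch, Tmem176b, Sdk1 and Tnik were detected on all 3 arrays with Nodal and SB431542 and on no array with Cripto and SB431542 or with Cripto. Spink4 was detected on none of 5 arrays with Cripto and SB431542 and on 3 of 5 with Cripto, and its change there has no measured size either. Nid1, detected throughout, differed by 4.82 ± 0.27 (SE, adjusted p = 2.39e-11). Of the list members, Skil differed by -1.64 ± 0.26 (SE, adjusted p = 3.78e-05), Lrp2 by -2.31 ± 0.33 (SE, adjusted p = 9.35e-06), Msmo1 by 2.12 ± 0.24 (SE, adjusted p = 4.67e-07) and Dusp6 by -2.54 ± 0.20 (SE, adjusted p = 2.31e-09). The medians of the 24 lists in the Cripto pair ran from -0.15 (retinoid handling and glycolysis) to 0.23 (interferon response), against 0.03 over all genes. They were 0.04 for epithelial genes, -0.02 for visceral endoderm genes and 0.02 for cholesterol genes. The differences cannot be told apart from anything that differed between the Nodal and Cripto cultures beside the ligand.

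**Figure D5:**
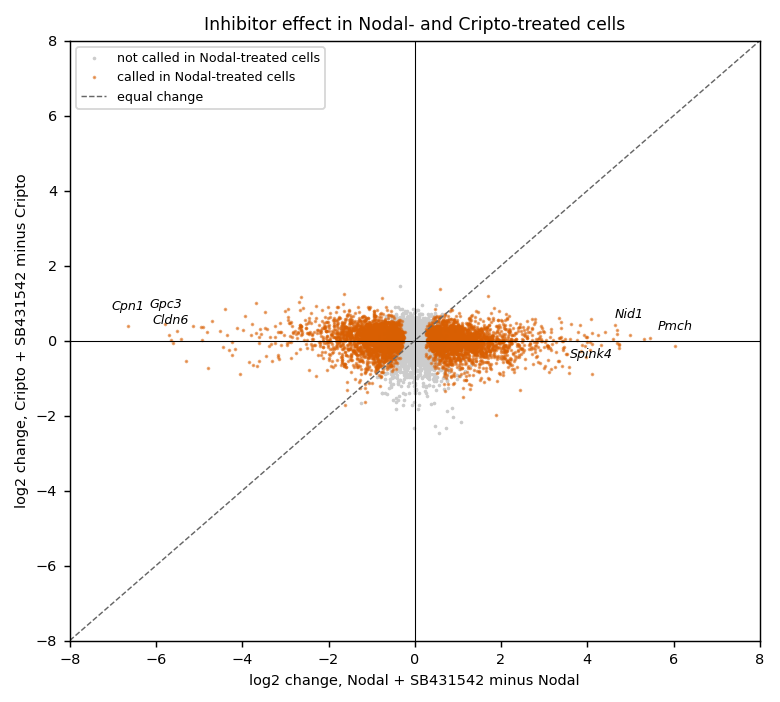
Fitted log2 change with SB431542 in Nodal-treated cells (horizontal) against that in Cripto-treated cells (vertical) for 9951 genes, 1 point per gene, coloured where called in Nodal-treated cells, with the line of equal change dashed. Among genes detected on at least 1 array of each Nodal group, points spread along the horizontal axis from Cpn1 at -6.65 to Nid1 at 4.98, while the vertical spread is narrower, with quantiles 0.05 and 0.95 over all genes at -0.61 and 0.46, and horizontally the same quantiles lie at -1.38 and 1.57.

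The last comparison asked what still differed from Media when Nodal and the inhibitor were both present. It called 264 genes (2.65%), 224 higher (2.25%) and 40 lower (0.402%). By at least 2-fold, 102 rose (1.03%) and 2 fell (0.0201%), and 1975 (19.8%) had an unadjusted p under 0.05. For 87.4% of genes the 95% interval lay within 2-fold. The count rested on single arrays: it was 0, 3 and 9 without replicate 1, 2 or 3 of Nodal with SB431542, 459 without Nodal replicate 1, 7 to 18 without any 1 of Media replicates 1 to 4, and 796 without Media replicate 5. With no BeadChip term it was 3. Within chips 1 and 3 it was 0, in a fit with fewer arrays, so that count does not show that differences were absent there. The fits without a Media array and the fit within chips were added after the data were seen.

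The genes with the largest differences show the part of Media replicate 5. Net1, an exchange factor for RhoA, read 9.07, 9.06 and 9.06 with Nodal and SB431542 and 6.07, 5.73, 5.63, 5.38 and 9.18 on the 5 Media arrays, a difference of 2.96 ± 0.58 (SE, adjusted p = 0.0267). Hif1a, the oxygen-regulated transcription factor, read 8.42, 8.29 and 8.41 with Nodal and SB431542 and 6.17, 5.52, 5.45, 6.09 and 8.50 in Media, a difference of 2.28 ± 0.56 (SE, adjusted p = 0.0361). Both genes differed within chips 1 and 3, which held Media replicates 1 and 3. In both, Media replicate 5 lay at the level of the inhibitor arrays and the other 4 lay lower. The shift was not confined to that array. SB431542 replicate 5 read 9.45 for Net1, against 5.61, 6.04, 5.42 and 5.55 on the other arrays with SB431542 alone. Media replicate 5 lay on chip 6 and SB431542 replicate 5 on chip 7. Eprs, a tRNA synthetase, 4932438A13Rik and Srsf10, a splicing factor, differed by 2.75, 2.36 and 2.29. Car4 read 4.74, 4.78 and 5.59 with Nodal and SB431542 and 6.62, 6.80, 6.90, 6.83 and 4.95 in Media. It was detected on none of the 3 inhibitor arrays, at least 1.67-fold lower than in Media, again with Media replicate 5 at the level of the inhibitor arrays.

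Cpn1 and Maea, part of a ubiquitin ligase, differed from Media by -1.15 and -0.90. Tap1 and Itpr2, a calcium channel of the endoplasmic reticulum, were detected on none of the 3 inhibitor arrays and were at least 1.4-fold and 1.25-fold lower than in Media. Among pathway genes, Acvr2a, detected on no Media array, was at least 1.36-fold higher than in Media, and Tgfbr1 differed by 0.71 ± 0.16 (SE, adjusted p = 0.0306) and Smad2 by 0.62 ± 0.16 (SE, adjusted p = 0.0463). The medians of the 24 lists against Media ran from -0.27 (3 fibroblast genes) to 0.53 (3 genes of the anterior visceral endoderm), against -0.08 over all genes. They were -0.26 for Smad2/3 feedback genes, -0.26 for epiblast genes, 0.20 for receptors and Smads, -0.14 for epithelial genes and -0.06 for visceral endoderm genes. This comparison uses the same 3 inhibitor arrays as the main one.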

How the data were processed

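RNA of Xen-eyfp cells in 6 groups was hybridised to 28 Illumina MouseWG-6 v2 arrays on 7 BeadChips. The deposited files hold, per the file headers, the average bead intensity of each of 45281 probes on a linear scale, neither background-subtracted nor scaled, and a detection p-value against negative control beads. A deposited table of processed values is on a log2 scale, with its normalisation not given in the sources used here, and served as an alternative. BeadStudio and lumi are named, per the submitters' processing notes, without versions.

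Intensities were background-corrected by normexp from the detection p-values, quantile-normalised with an offset of 16 and log2-transformed (limma 3.58.1, R 4.3.3). Probes detected at p under 0.01 on at least 3 arrays were kept (18471), and the brightest probe stood for each gene (9951 genes). Of all probes, 34885 had 1 gene symbol in the platform annotation, 18 several and 10378 none. A linear model of 6 groups and the BeadChip was fitted to all 28 arrays, which share 1 estimate of the spread (16 residual degrees of freedom, 4.19 from the prior), and p-values were adjusted by Benjamini-Hochberg over all genes. Errors are standard errors of the fit unless given as SD. The script was tested on simulated data. The number of arrays limits the precision.

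Named genes are the 12 largest falls and rises among called genes detected on all 8 arrays with the same sign on chips 1 and 3, the 5 largest bounds in each direction among genes detected in 1 group only, the 5 largest called changes in each direction of the other comparisons, and members of 24 gene lists. Of 454 list memberships 282 were measured, 137 had a probe that did not pass the detection filter and 35 had no probe. The comparison and the lists were chosen with earlier results of these data known. Alternatives covered the BeadChip term, the arrays in the fit, brightness, normalisation, background, filter, probe choice and single arrays left out.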

Additional observations from a re-analysis of the deposited data

Results flagged for a closer look

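Of the 161 named genes, 33 (20.5%) had 1 Nodal array far from the other 4 by Dixon's criterion, which chance gives in about 5% of groups, and for 28 of them that array was Nodal replicate 1. Over all 9951 genes Nodal replicate 1 was the distant array for 940 (9.45%), against 24 to 70 (0.241% to 0.703%) for each of the others. On that array Cldn6 read 11.24, Apoe 9.73, Eef1d 7.63, Igfbp5 7.89, Spink4 5.67, Gkn2 5.75, Spock1 7.72 and Tspan8 9.71. Rnf130 read 10.29, Dpp4 9.62, Cyp26a1 9.64, Tgfbr1 9.20, Tgfbr2 10.31, Tgfbr3 9.54 and Lrp2 12.34 on it. Apoa1 read 5.39, Mttp 7.11, Hspg2 13.60, Zeb1 7.76, Fn1 6.99, Egr1 11.76 and Fos 9.84. Rarb read 5.53, Grb10 4.76, Msmo1 9.44, Slc2a3 13.70, Ldha 12.63 and Psat1 11.47. The other distant values were Nid1 at 10.16 and Acss1 at 5 on Nodal replicate 2, Tmem176b at 5.86 and Cdk1 at 11.37 on replicate 4, and Lamc1 at 15.18 on replicate 5. Grb10 on replicate 1, and Tmem176b and Acss1 on every Nodal array, were not above background. Without Nodal replicate 1 all 33 genes were still called in the main comparison.

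The fitted log2 change with SB431542 in Nodal-treated cells differed from that in untreated cells by -6.54 for Cpn1, -6.23 for Gpc3, -5.76 for Car4, -5.64 for Cldn6 and -5.49 for Cyp26a1, and by 5.98 for Pmch, 5.50 for Tmem176b, 5.31 for Sdk1, 5.04 for Nid1 and 4.78 for Tnik. It differed from that in Cripto-treated cells by -7.03 for Cpn1, -6.23 for Gpc3, -5.85 for Car4, -5.77 for Ddc and -5.66 for Cldn6, and by 6.18 for Pmch, 5.37 for Tmem176b, 5.28 for Sdk1, 4.99 for Spink4 and 4.92 for Tnik. Each was a contrast of the same limma fit. Pmch, Tmem176b and Sdk1 were not above background on any Nodal array, Car4 and Cyp26a1 on any array with Nodal and SB431542, Tnik on any array with Cripto, and Spink4 on any array with Cripto and SB431542, so the sizes and the order of their fitted differences were not measured. With Nodal and SB431542 the brightest probe of Cpn1 was detected on 1 of 3 arrays and those of Gpc3 and Ddc on 2. Tnik was detected on 2 of 5 Nodal arrays. The sizes for these genes are uncertain.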

How the results depend on the processing

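The difference between Nodal with SB431542 and Nodal kept its count of calls within 1.5 times in every alternative run except 2: within chips 1 and 3 alone it was 2624 genes (1373 higher and 1251 lower), and median centring over all probes left 1417 higher. All 5338 called genes kept their fitted direction in the joint fit of chips 1 and 3 and without any 1 of the 8 arrays, while 4909 had that direction on each of the 2 chips alone, and the count without 1 array was 4544 to 5856 (2190 to 2845 higher, 2354 to 3011 lower). Median centring also left 1044 higher for the difference from the inhibitor's change in untreated cells and 1423 for that in Cripto-treated cells, and on chips 1 to 4 the first of these had 1478 lower. Mcm4 reversed to -0.69 with the mean of its probes. The call counts of Nodal with SB431542 against Media moved most. They were 3 (3 higher, 0 lower) with no BeadChip term, 562 (507 higher) on chips 1 to 4, 51 (49 and 2) with brightness as a covariate, 28 (28 and 0) with median centring, 113 (99 and 14) with no detection filter and 350 higher with no background correction. In settings chosen after seeing the data they were 15 (14 and 1) with centring over the kept probes and 0 (0 and 0) within chips 1 and 3, a fit with fewer arrays. Without 1 array they were 0 to 796 (0 to 632 higher, 0 to 164 lower). The cause was not tested. List medians moved by more than their spread in 72 cases and by less in 479, and the medians of the ligand, fibroblast, mesenchymal, primitive endoderm factor and trophoblast lists changed sign in 1 to 5 settings each. No paired analysis was possible because the replicate numbers follow accession order and pair no arrays, and blocking was by BeadChip instead. For genes not above background in a group the size of a change was not measured.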
